A study of Mus musculus with 2 samples.

Results

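The complement genes described here are C1qa, C1qb, C1qc, C3, C4b, C3ar1, C5ar1 and Serping1. These 8 genes were chosen by symbol from the 55450 genes listed in each count table, and each symbol had 1 row. Their unique molecular identifiers (UMIs, which count each captured RNA molecule once) were followed in 2 single-cell RNA libraries of cerebral cortex from C57BL/6 mice. One library was a control and the other came from cortex with cerebral white matter injury (WMI), produced by tying off a common carotid artery and then lowering the oxygen. For both libraries, the control included, the labels give surgery at postnatal day 7, 1 h of hypoxia and sampling at postnatal day 14. They also name nuclei. The study's methods give surgery at postnatal day 3, hypoxia for 90 min in 6% oxygen, sampling at postnatal day 10, trypsin-dissociated cells and 4 replicates per group. The labels call the cells neurons and glia, and clusters with the markers of both were found. Whether the control was a separate brain or the side of the brain away from the ligation also differs between these sources.

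Complement is a set of proteins that tag debris, microbes and, in developing brain, synapses for removal. In the classical pathway the recognition molecule C1q, built from A, B and C chains, binds a target and starts the cleavage of C4 and then of C3, whose fragments coat the target and release small signalling peptides. Microglia, the resident macrophages of the brain, are its main known source of C1q, whereas reactive astrocytes are known for C3 and C4 and meningeal fibroblasts for the inhibitor of the C1 enzymes.

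With 1 library per condition, every difference between control and WMI is a difference between these libraries and has no replicate check. Intervals are exact 95% intervals that cover counting error only. After filtering, 8812 control and 7586 WMI cells remained, with median depths of 4896 and 5369 UMIs, and 27 cell barcodes occurred in both. The median share of mitochondrial UMIs was 0.0606% in control and 0.452% in WMI cells. Xist, the RNA of the inactive X chromosome, had a UMI in 0.0567% of control and 63.7% of WMI cells, so that injury and the sex makeup of the libraries cannot be told apart. Cells were clustered without the complement genes and named by marker genes, and each name below means cells that were like that class. Of 32 clusters, 4 stayed unnamed and were left out of the classes. They held 1174 control and 808 WMI cells, and the summed C1q level reached 828 CPM (UMIs of a gene in every 1000000 UMIs of a class) in WMI cells of the cluster led by haemoglobin and mitochondrial genes.

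The 3 C1q genes lie side by side on chromosome 4 in the order C1qb, C1qc and C1qa, all on the minus strand, within 18675 bases (GRCm38, chr4:136880129-136898803). C1qa occupies chr4:136895917-136898803, C1qb chr4:136880129-136886187 and C1qc chr4:136889804-136893065. C3 is at chr17:57203970-57228136 and overlaps the microRNA gene Mir6978. C4b is at chr17:34728380-34743882, near its almost identical copy C4a at chr17:34809092-34823464, and reads of one could be counted for the other or dropped, so the C4b values are uncertain by that amount. C4a itself had 198 UMIs in all kept cells. C3ar1 is at chr6:122847138-122856161, C5ar1 at chr7:16246743-16259540 and Serping1 at chr2:84765387-84775444. The labels name the build mm9, but all 55450 gene identifiers and symbols were those of GENCODE M21 on GRCm38, and these coordinates are from that annotation.

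Promoters from RefSeq (GRCm38.p6) were at hand for 5 of the 8 genes, C1qb, C1qc, C3, C3ar1 and C5ar1. Their starts are not always those of the coordinates above. The window searched was chr4:136892915-136893164 for C1qc and chr7:16259339-16259588 for C5ar1, and both reach into the gene as placed above. The letters GAGGAA are the core bound by PU.1 (Spi1), a transcription factor that myeloid cells require. They were searched on both strands of the 250 bases before each RefSeq start. They were found once in C1qb and once in C1qc, and not in the windows of C3, C3ar1 and C5ar1. The window of C1qa was not searched, so the chain genes cannot be compared in this. The same letters occur in 23.1% of 27025 mouse promoters of this length, so a match describes the window only. The letters TTCNNNGAA, a STAT core, occur in 7.18% of promoters and in none of the 5. Both windows with GAGGAA are shown on the strand of the gene, with the match in capitals, which reads TTCCTC where it lies on the other strand. They cover chr4:136886211-136886300 for C1qb, with the match at position -30 from the RefSeq start, and chr4:136893070-136893159 for C1qc, with the match at position -193 from its RefSeq start.
C1qb: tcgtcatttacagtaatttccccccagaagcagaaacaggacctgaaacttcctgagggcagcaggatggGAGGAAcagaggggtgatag
C1qc: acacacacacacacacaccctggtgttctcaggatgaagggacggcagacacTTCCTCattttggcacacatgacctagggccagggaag

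The C1q genes had more UMIs than the other 5 members and were highest in microglia-like cells of both libraries. The summed level of C1qa, C1qb and C1qc in the 427 control microglia-like cells was 632 CPM (592 to 674). In the 678 WMI microglia-like cells it was 1706 CPM (1652 to 1760), or 2.7-fold higher (log2 ratio 1.43, 1.33 to 1.54). The WMI value lay above the control interval. Median depths of the cells were alike, 3158 UMIs in control and 3028 in WMI. All 4 members with at least 50 UMIs in microglia-like cells, the C1q genes and C3ar1, were at least 2-fold higher in WMI, whereas 4.68% of the 9031 genes measured there were and 1.13% were at least 2-fold lower. The other 4 members were too sparse there to be counted. A sparse gene reaches 50 UMIs more easily in the library where it is high, so the count describes these genes and supports no claim about the list.

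The chain genes did not differ by the same factor. C1qa went from 182 CPM in control to 671 CPM in WMI microglia-like cells, a log2 ratio of 1.88 (1.69 to 2.08). For C1qb the levels were 223 and 513 CPM, a ratio of 1.20 (1.02 to 1.38). For C1qc they were 227 and 522 CPM, again a ratio of 1.20 (1.02 to 1.38). The interval of C1qa did not overlap those of C1qb and C1qc. C1qa thus made up 28.7% (25.8 to 31.8) of the C1q UMIs of control and 39.3% (37.8 to 40.9) of those of WMI microglia-like cells. C1qb made up 35.3% and 30.1% of them, and C1qc 36% and 30.6%. In excitatory neuron-like cells the C1qa share was 31.6% (29.1 to 34.2) in control and 37.1% (35.6 to 38.6) in WMI. In the other classes named from clusters the control and WMI intervals overlapped, and the direction was mixed. Among others, the share was higher in WMI in fibroblast-like cells, at 17.6% (3.8 to 43.4) and 46.8% (35.5 to 58.4). It was also higher in inhibitory neuron-like cells, at 29.4% (21.4 to 38.5) and 33.8% (29.8 to 38). The C1qa share was 39.5% (30.7 to 48.9) and 39.3% (35.8 to 42.9) in astrocyte-like cells, 40.3% (29.2 to 52.1) and 37.3% (33.2 to 41.5) in OPC-like cells, and 48.3% (29.4 to 67.5) and 36.6% (34.6 to 38.7) in the activated myeloid cluster. These control shares rest on 119, 77 and 29 C1q UMIs.

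**Figure D1:**
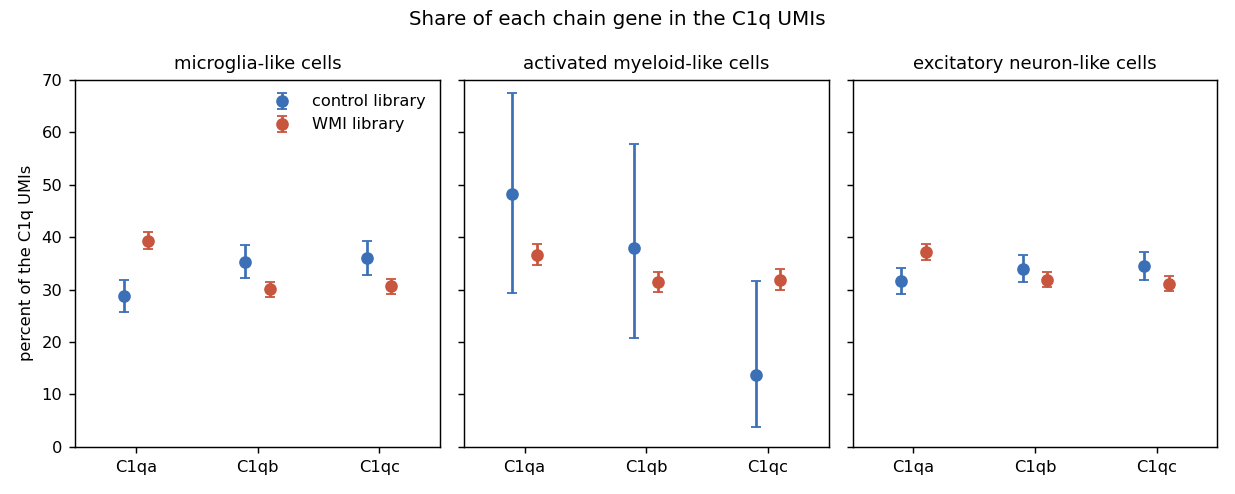
Percent of the C1q UMIs that belonged to C1qa, C1qb or C1qc (vertical axis) in 3 cell classes, for the control (blue) and WMI (red) libraries. Bars are exact 95% binomial intervals, and C1qa stands higher in WMI than in control in microglia-like (28.7% and 39.3%) and excitatory neuron-like cells (31.6% and 37.1%).

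Per cell, microglia-like cells held a mean of 2.14 C1q UMIs in control and 5.69 in WMI, with medians of 1 and 4. Cells with none made up 21.8% of control and 5.6% of WMI microglia-like cells, and 1 WMI cell held 72. When each cell was thinned to 1000 UMIs, 44.7% (39.9 to 49.6) of control and 72% (68.4 to 75.3) of WMI microglia-like cells had at least 1 C1q UMI. Cells with UMIs of all 3 C1q genes made up 0.937% (0.256 to 2.38) and 8.55% (6.56 to 10.9) after thinning, and 17.1% and 40.9% before it. The same thinned measure in excitatory neuron-like cells gave 4.13% with any C1q in control and 14.7% in WMI, whose median depths were 6504 and 9465 UMIs. Cells with all 3 genes were 0 of 5351 control and 0.0684% of WMI excitatory neuron-like cells. A floor of 3 cells is 0.0561% of those control cells, with counting error left out, so these shares are not read as different.

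**Figure D2:**
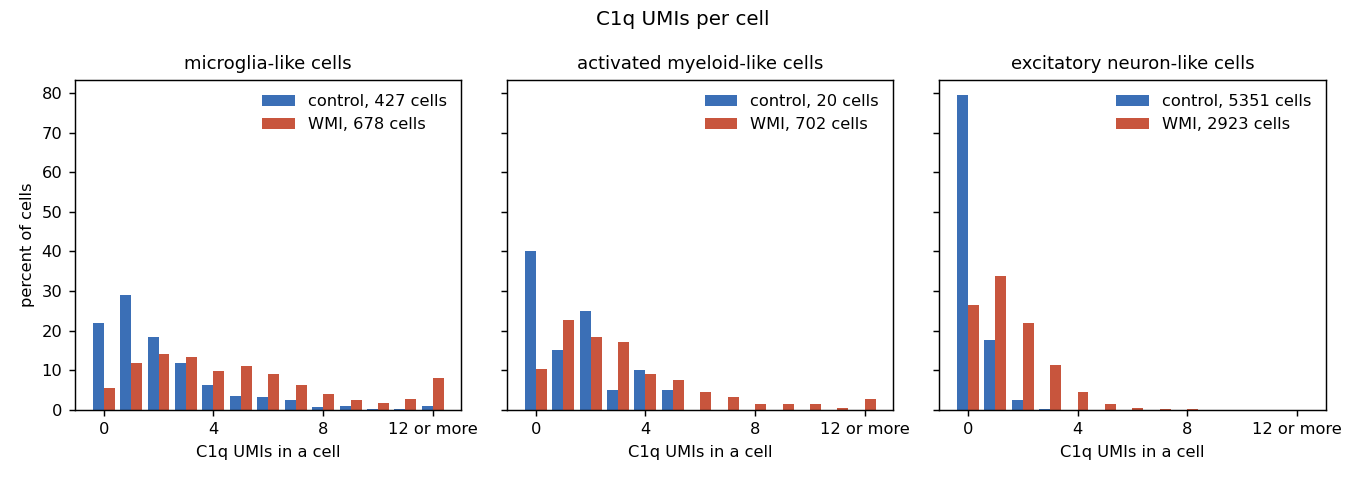
Distribution of C1q UMIs per cell (horizontal axis, the last bar holding cells with 12 or more) as percent of cells of the class, for control (blue) and WMI (red). Cells without any C1q UMI were 21.8% and 5.6% of microglia-like and 79.4% and 26.4% of excitatory neuron-like cells in control and WMI.

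A cluster named activated myeloid held 20 control and 702 WMI cells, so that class and library nearly coincide there. Its WMI cells had C1q at 941 CPM (902 to 980), below the 1706 CPM of WMI microglia-like cells (log2 ratio -0.86, -0.93 to -0.78). Its control cells were at 365 CPM (244 to 524) from 29 UMIs. Those 20 cells differed from the WMI cells of the cluster in other markers too. Mrc1, the mannose receptor of border macrophages, stood at 1383 CPM in them and at 246 CPM in the WMI cells. All 8 border macrophage markers summed to 2779 CPM in them, 1012 CPM in the WMI cells and 303 CPM in WMI microglia-like cells. Of these markers Ms4a7 (101 and 130 CPM), Pf4 (0 and 18.3 CPM) and Lyve1 (0 and 1.25 CPM) were not higher in the 20 cells. Stab1 was at 402 and 383 CPM, and Cbr2 rested on 1 UMI in the 20 cells. The 20 cells held 0 UMIs of Gpnmb and Spp1, which had 1266 and 825 UMIs in the WMI cells. For all myeloid cells together, C1q went from 618 CPM in 447 control cells to 1312 CPM in 1380 WMI cells, a log2 ratio of 1.09 (0.99 to 1.19). After the mean count of excitatory neuron-like cells was subtracted from every cell this ratio was 0.70. In these pooled cells 4 of 6 measured members were at least 2-fold higher in WMI, against 8.2% of all 11196 genes measured. C4b, C3ar1 and C5ar1 reached 50 UMIs only through the WMI library, so this count supports nothing about the list either. The members 2-fold lower were 0, against 1.68% of all genes, and C1qb and C1qc were 1.84-fold and 1.87-fold higher.

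Other myeloid genes of the microglia-like cells differed as well. Among 26 fixed myeloid and microglial markers the median log2 ratio of WMI over control was 0.49, from -0.55 for Selplg to 4.46 for Lyz2. Trem2 (1.50) and Lyz2 stood above the C1q sum, whereas the homeostatic markers were mixed. Cx3cr1 (0.39), Sall1 (0.32), Gpr34 (0.38), Fcrls (0.49), Olfml3 (0.64) and P2ry12 (0.13) were higher with intervals above 0, Siglech (-0.46) and Selplg (-0.55) were lower, and the intervals of Tmem119 (0.09) and Slc2a5 (-0.02) included 0. The 12 activated myeloid markers, in contrast, summed to 360 CPM in control and 5447 CPM in WMI microglia-like cells. Apoe alone was at 163 and 4276 CPM and Ctsb at 133 and 677 CPM, whereas Fabp5 was not higher (26.9 and 24.3 CPM). Cells named microglia-like were thus not alike in state in the libraries, and the part of this in the C1q ratio was not tested. Mitochondrial genes made up 0.276% of the UMIs of control and 0.811% of those of WMI microglia-like cells. In all myeloid cells the C1q log2 ratio of 1.09 was 1.10 with mitochondrial and ribosomal protein genes out of the total. With a mitochondrial limit of 2% it was 1.04. These values were not taken for microglia-like cells alone, and a cause of the C1q difference was not tested.

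C1q UMIs were also counted in every class that is not myeloid. Because those classes are large, neurons held 46.9% of all C1q UMIs of the control library and 33.4% of those of the WMI library. The level was 28.9 CPM in control and 125 CPM in WMI neurons, a log2 ratio of 2.11 (2.02 to 2.19). In cells of the oligodendrocyte (OL) lineage it was 32.7 and 224 CPM (2.78, 2.50 to 3.06), in astrocyte-like cells 44.5 and 215 CPM (2.27, 1.99 to 2.56) and in fibroblast-like cells 39.4 and 199 CPM (2.34, 1.57 to 3.19). Each of these ratios was larger than that of microglia-like cells. In neurons 5 of 6 measured members were at least 2-fold higher, all but Serping1, against 3.43% of genes, with 2.56% lower. In excitatory neuron-like cells it was the same 5 of 6, against 3.33% and 2.46%. In the OL lineage the C1q genes and C3ar1, 4 of 4 measured, were higher, against 2.66% and 2.08%. All 4 reached the least count of a measured gene there only through the WMI library. Their control UMIs were 42, 39 and 36 for C1qa, C1qb and C1qc and 4 for C3ar1. The same held in neurons for C4b and C3ar1, with 13 and 32 control UMIs, and in excitatory neuron-like cells, with 12 and 30. These counts therefore support nothing about the list.

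Counted per cell, however, C1q spanned a narrower range over these classes of a library than in CPM. Over the 10 classes without myeloid cells that had at least 50 control cells, there were 16.1 to 29.2 C1q UMIs per 100 cells. Over the 11 such classes of the WMI library there were 110 to 142. Some differed beyond counting error, as WMI OPC-like cells at 115 (106 to 125) and excitatory neuron-like cells at 142 (138 to 146). Median depths of these classes spanned 4274.5 to 14145 UMIs in control and 3695 to 12800 in WMI. Their levels in CPM spanned 18.5 to 45.6 and 94.6 to 272. WMI OL lineage cells had 124 C1q UMIs per 100 cells and excitatory neuron-like cells 142, so the higher CPM of the former went with their lower depth. The part of free RNA in these counts was not tested. They are given as counts of each library and not read as expression in neurons, astrocytes, fibroblasts or OL lineage cells.

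**Figure D3:**
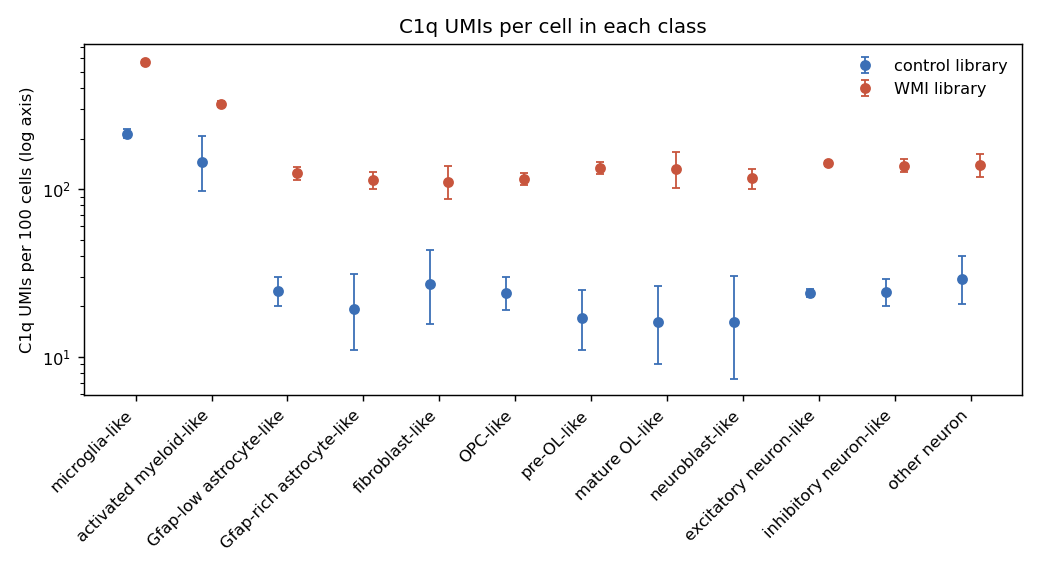
C1q UMIs per 100 cells (log axis) in the cell classes with at least 50 cells in both libraries, and the activated myeloid cluster, of the control (blue) and WMI (red) libraries, with exact 95% Poisson intervals. The classes drawn that are not myeloid lie at 16.1 to 29.2 in control and at 110 to 142 in WMI, below microglia-like cells at 214 and 569.

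Other myeloid genes were found in neurons too, most of them in a lower proportion than C1q. The level in excitatory neuron-like cells was 5.23%, 4.58% and 4.56% of that in microglia-like cells for C1qa, C1qb and C1qc in control, and 6.88%, 7.73% and 7.41% in WMI. For the 26 myeloid markers the median was 3.17% in control (0.681% to 15.9%) and 4.44% in WMI (1.83% to 30.2%). Above C1qc lay 6 of these markers in control and 7 in WMI. Taking the mean C1q count of excitatory neuron-like cells away from every microglia-like cell left 561 CPM in control and 1280 CPM in WMI, a ratio of 2.28-fold (log2 1.19). For the activated myeloid cluster of the WMI library it left 526 of 941 CPM, since 44.1% of its C1q UMIs were at the level of neurons.

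C4b, the mouse C4 whose fragments tag targets for the convertase, had 33 UMIs in all control and 489 in all WMI cells. Astrocyte-like cells held 57.5% of the UMIs in WMI. In control they held 30.3% and neurons 39.4%. Astrocyte-like cells held 10 UMIs in 501 control cells (3.74 CPM, 1.79 to 6.88) and 281 in 623 WMI cells (81 CPM, 71.8 to 91.1). The log2 ratio was 4.44 (3.54 to 5.51), or 21.7-fold. Their median depths were 4955 and 4973 UMIs. In astrocyte-like cells 5 of 5 measured members, the C1q genes, C4b and Serping1, were at least 2-fold higher in WMI, against 5.91% of 10758 genes, and 0 were 2-fold lower, against 1.29%. All 5 reached 50 UMIs there only through the WMI library, with 47, 40 and 32 control UMIs of C1qa, C1qb and C1qc. C1q per cell did not stand above neurons either, so the count supports nothing about the list.

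Both astrocyte clusters had a higher C4b level in WMI, and Gfap was higher too. Gfap was at 32.8 CPM in control and 371 CPM in WMI cells of the Gfap-low cluster, and at 229 and 1270 CPM in the Gfap-rich cluster. The names thus rank the clusters within a library only, since WMI Gfap-low cells had more Gfap than control Gfap-rich cells, and the part of this difference in the C4b values was not tested. The C1q genes and C4b were the 4 members measured in each, all at least 2-fold higher in WMI. Of all genes, 7.57% were higher and 1.49% lower in the Gfap-rich and 3.65% and 1.47% in the Gfap-low cluster. In both clusters the 4 members reached 50 UMIs only through the WMI library, so these counts support nothing about the list. WMI C1q UMIs per 100 cells were 113 in Gfap-rich and 124 in Gfap-low cells, beside 142 in excitatory neuron-like cells. In the Gfap-low cluster, which had 418 control and 368 WMI cells, C4b was at 1.33 CPM from 3 UMIs in control and at 60.5 CPM (50.5 to 71.9) in WMI. In the cluster led by Gfap, the filament protein of reactive astrocytes, 83 control cells were at 16.9 CPM (6.79 to 34.8) and 255 WMI cells at 114 CPM (96.4 to 133). Gfap-rich cells thus stood above Gfap-low cells in both libraries, by 12.7-fold in control (log2 3.67, 1.54 to 6.25) and 1.88-fold in WMI (log2 0.91, 0.56 to 1.26). C4b UMIs were spread over 177 of the 623 WMI cells, with at most 9 in a cell, and 35.3% of Gfap-rich and 23.6% of Gfap-low WMI cells had one.

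Beside astrocytes, fibroblast-like cells had 4 C4b UMIs in control (9.27 CPM, 2.53 to 23.7) and 13 in WMI (32.7 CPM, 17.4 to 56). Their log2 ratio of 1.82 had an interval of 0.13 to 3.89. The 13 WMI UMIs lay in 8 cells, with 4 in 1 cell. OL lineage cells had 1 C4b UMI in control and 30 in WMI, a log2 ratio of 4.35 with an interval of 1.76 to 9.70. Per 100 cells, however, those WMI cells had 3.17 C4b UMIs (2.14 to 4.52) and WMI excitatory neuron-like cells 2.63 (2.08 to 3.29), so C4b in the OL lineage did not stand above the neuronal count at this depth. The same held for WMI microglia-like cells at 3.39 per 100 cells (2.15 to 5.09) and activated myeloid cells at 3.85 (2.53 to 5.6). Gfap-low astrocyte-like cells had 35.1 and Gfap-rich cells 59.6.

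C3, the central protein on which all complement routes meet, was rare. It had 2 UMIs in all control cells, both in excitatory neuron-like cells, and 86 UMIs in 71 WMI cells. Its level was highest in Gfap-rich astrocyte-like cells among the WMI classes with at least 50 cells, with 25 UMIs in 16 of 255 cells (18.7 CPM, 12.1 to 27.6) and 0 UMIs in 83 control cells. The WMI level was 2.59-fold a floor of 3 UMIs in the control cells of the class (7.24 CPM), with counting error left out. Gfap-low cells of the WMI library held 2 C3 UMIs in 368 cells, and the difference between the astrocyte clusters was 20-fold (log2 4.32, 2.31 to 7.44). Of the 16 Gfap-rich cells with C3, 6 (37.5%, 15.2 to 64.6) also had C4b, and of the 239 without C3, 35.1% (29.1 to 41.6) did.

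In activated myeloid cells of the WMI library, C3 had 17 UMIs in 11 of 702 cells (7.08 CPM, 4.12 to 11.3), with 4 in 1 cell. Microglia-like cells held 3 UMIs in 678 WMI cells and 0 in 427 control cells. For all myeloid cells the WMI level of 4.29 CPM from 20 UMIs was 2.18-fold the floor of 3 UMIs in control, with counting error left out. Of these UMIs 17 lay in the activated myeloid cluster, whose 20 control cells had 0 with an upper limit of 46.4 CPM. The pooled value thus mixes level with class makeup. After thinning to 1000 UMIs, 4 of 1380 WMI myeloid cells (0.29%, 0.079 to 0.74) and 0 of 447 control cells had a C3 UMI. A floor of 3 cells is 0.671% of those control cells, above the WMI share, so no difference in this share was detectable. Without thinning the shares were 1.01% of WMI and 0 of 447 control cells. Of the WMI cells, neurons held another 27 C3 UMIs, never more than 1 in a cell. Per 100 cells the count was 0.855 (0.553 to 1.26) in excitatory neuron-like, 0.442 in microglia-like, 2.42 (1.41 to 3.88) in activated myeloid and 9.8 (6.34 to 14.5) in Gfap-rich cells.

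C3ar1, the receptor for the C3a peptide, followed the myeloid classes. Microglia-like cells had 20 UMIs in control (13.8 CPM, 8.44 to 21.3) and 145 in WMI (64.1 CPM, 54.1 to 75.4), a log2 ratio of 2.21 (1.53 to 2.97). Activated myeloid cells of the WMI library were at 124 CPM (110 to 139), 1.93-fold above WMI microglia-like cells (log2 0.95, 0.66 to 1.25), and 1 cell held 22 of their 297 UMIs. Their 20 control cells held 4 UMIs (50.3 CPM, 13.7 to 129). All myeloid cells together went from 15.7 to 94.7 CPM, a log2 ratio of 2.59 (2.00 to 3.25). This pooled ratio mixes level with class makeup, since activated myeloid cells were 20 of 447 control and 702 of 1380 WMI myeloid cells. After thinning, 1.17% (0.381 to 2.71) of control and 5.75% (4.12 to 7.78) of WMI microglia-like cells had a C3ar1 UMI, beside 0.0748% and 0.479% of excitatory neuron-like cells. Among WMI microglia-like cells, C1q was present in 97.6% of the 123 cells with C3ar1 and in 93.7% of the 555 without it, with median depths of 3557 and 2938 UMIs.

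Outside myeloid cells C3ar1 was sparse, and over the 11 classes of the WMI library it ran from 2.78 UMIs per 100 cells in fibroblast-like (2 UMIs) to 15.4 in mature OL-like cells (8 UMIs). Per 100 WMI cells there were 6.29 C3ar1 UMIs in excitatory neuron-like, 7.61 in Gfap-low and 5.1 in Gfap-rich astrocyte-like, and 5.39 in OL lineage cells, with overlapping intervals. In control the excitatory neuron-like cells had 0.561. Less this count, microglia-like cells had 12.2 CPM in control and 45.2 CPM in WMI, a log2 ratio of 1.89.

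C5ar1, the receptor for the C5a peptide that draws phagocytes to a lesion, had 14 UMIs in all control and 135 in all WMI cells. In control myeloid cells all 5 UMIs came from 4 of the 20 activated myeloid cells, and the 427 microglia-like cells had 0. In WMI there were 26 UMIs in microglia-like cells (11.5 CPM, 7.5 to 16.8). This level was 5.54-fold the control floor of 3 UMIs (2.07 CPM), with counting error left out. WMI activated myeloid cells had 52 (21.6 CPM, 16.2 to 28.4), 1.88-fold above microglia-like cells of that library (log2 0.91, 0.21 to 1.65). Over all myeloid cells the level was 3.27 CPM in control and 16.7 CPM in WMI, a log2 ratio of 2.35 (1.07 to 4.02). This pooled ratio too mixes level with class makeup. In the activated myeloid cluster alone the order was the other way, with 62.9 CPM (20.4 to 147) in control and 21.6 CPM in WMI, where the control value rests on 20 cells.

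Serping1, the C1 inhibitor that blocks the enzymes bound to C1q, marked fibroblast-like cells in both libraries. The 63 control cells had 24 UMIs (55.6 CPM, 35.6 to 82.7) and the 72 WMI cells 24 (60.4 CPM, 38.7 to 89.9). The log2 ratio was 0.12 with an interval of -0.76 to 1.00, which leaves room for up to a 2-fold difference. No member reached 50 UMIs in fibroblast-like cells, where 3.58% of 3295 measured genes were at least 2-fold higher in WMI and 2.58% lower. Serping1 lay 61.4-fold above neurons in control and 68.8-fold in WMI. Neurons were level, with 0.906 CPM in control and 0.879 CPM in WMI (log2 -0.04, -0.72 to 0.62).

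Myeloid cells held 4 Serping1 UMIs in control, 3 of them in 1 cell of the activated myeloid cluster, and 10 in WMI, a log2 ratio of -0.29 (-2.08 to 1.84). Astrocyte-like cells, in contrast, had 1 Serping1 UMI in 501 control cells and 65 in 623 WMI cells (0.374 and 18.7 CPM, log2 ratio 5.65, 3.12 to 10.97). Gfap-rich WMI cells were at 28.4 CPM (20.1 to 39) and Gfap-low WMI cells at 12.7 CPM (8.35 to 18.4), a 2.25-fold difference (log2 1.17, 0.42 to 1.94). Per 100 cells the WMI counts were 14.9 and 7.34 against 1.06 in excitatory neuron-like cells. C4b was present in 40% (21.1 to 61.3) of the 25 Gfap-rich WMI cells with Serping1 and in 34.8% (28.6 to 41.3) of the 230 without, at median depths of 6827 and 4379 UMIs. Serping1 and C4b were both higher in WMI astrocyte-like cells. In fibroblast-like cells the interval of C4b left out 0 and that of Serping1 did not. These intervals overlapped, however, so the genes are not set apart in fibroblast-like cells.

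**Figure D4:**
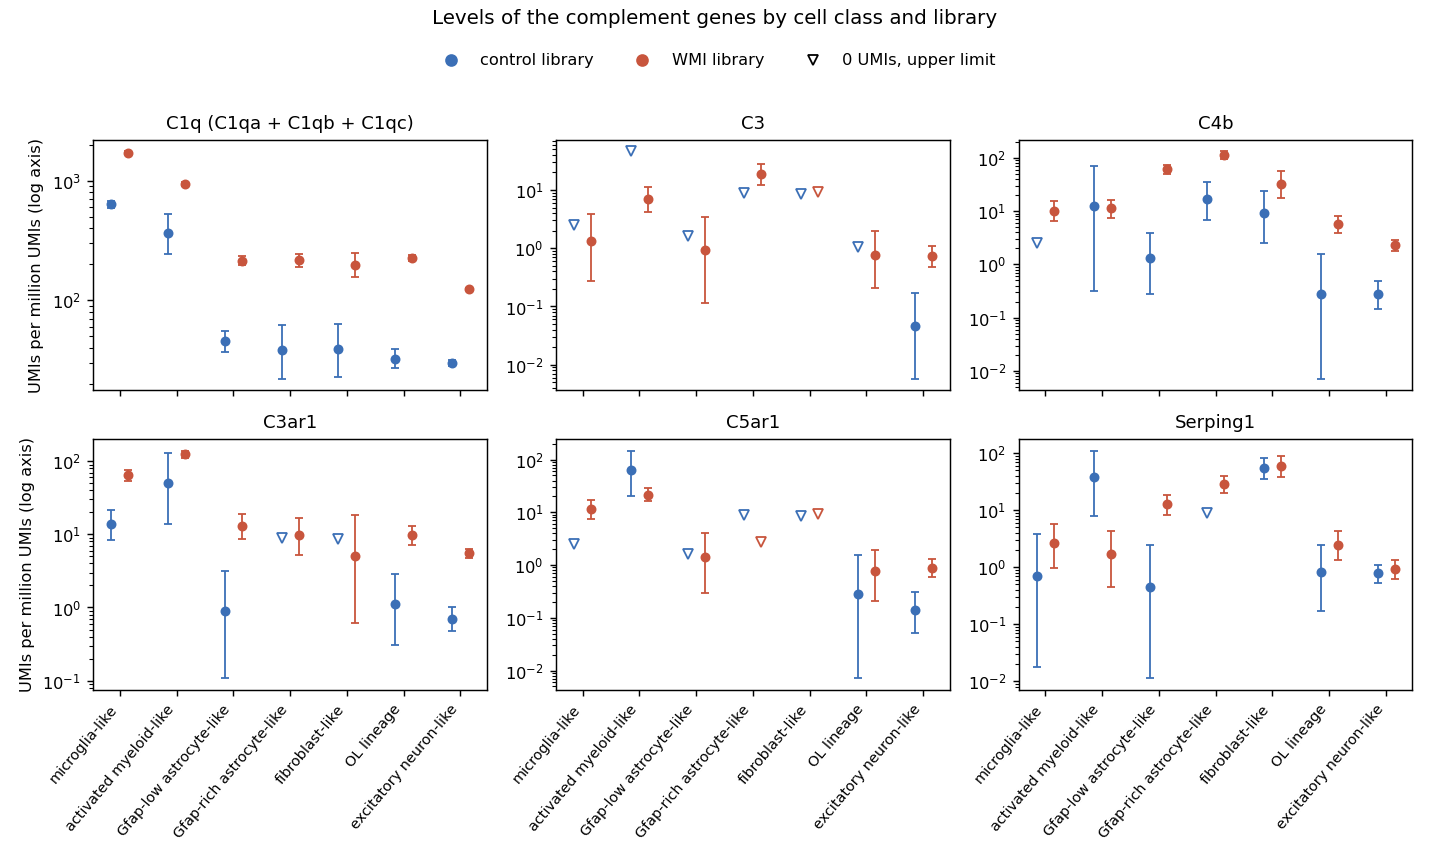
Level of C1q (3 genes summed), C3, C4b, C3ar1, C5ar1 and Serping1 in CPM (log axes) by cell class, for control (blue) and WMI (red), with exact 95% Poisson intervals. Open triangles mark the upper limit where 0 UMIs were counted. C1q is highest in microglia-like cells (632 and 1706), C4b in WMI Gfap-rich astrocyte-like cells (114) and Serping1 in fibroblast-like cells (55.6 and 60.4).

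The order of the classes in the WMI library, with levels in CPM, differed by gene. C1q ran from microglia-like (1706) over activated myeloid cells (941) to all others. C3ar1 and C5ar1 ran the other way within the myeloid classes, with activated myeloid above microglia-like cells. C4b ran from Gfap-rich (114) over Gfap-low astrocyte-like cells (60.5) to fibroblast-like cells (32.7), and Serping1 from fibroblast-like (60.4) over Gfap-rich (28.4) and mural cell-like (25.2, from 5 UMIs) to Gfap-low cells (12.7). The log2 ratio of Gfap-low over fibroblast-like cells in C4b was 0.89 (0.06 to 1.83), and that of fibroblast-like over Gfap-rich cells in Serping1 was 1.09 (0.29 to 1.86). Mural cell-like cells did not differ beyond counting error from Gfap-rich (-0.17, -1.88 to 1.17) or Gfap-low cells (0.99, -0.74 to 2.39) in Serping1.

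**Figure D5:**
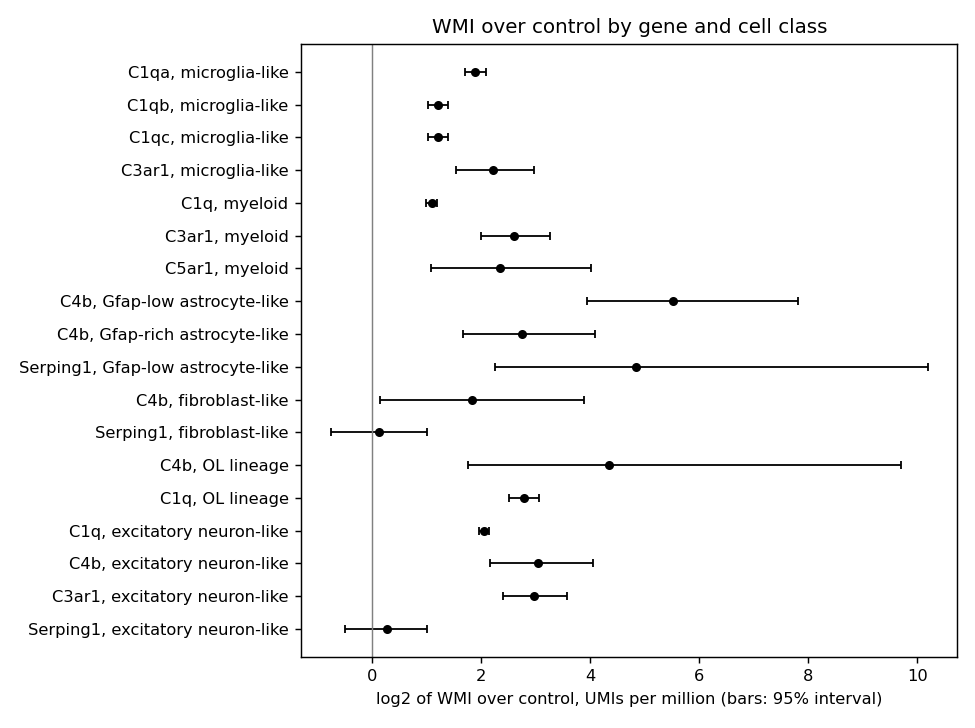
Log2 ratio of WMI over control levels for the gene and class pairs named on the vertical axis, with exact 95% intervals for counting error. The pairs are a choice and cover neither every gene nor every class. Left out, among others, were C5ar1 in activated myeloid cells and Serping1 in all myeloid cells, whose WMI values were below those of control. The interval of Serping1 includes 0 in fibroblast-like (0.12) and excitatory neuron-like cells (0.26), and those of the other pairs drawn lie above 0.

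The rest of the pathway was taken from a list of 51 further complement genes in 8 roles, of which 30 reached 50 UMIs in a class. In myeloid cells 17 of them were measured, and 5 were at least 2-fold higher in WMI and 0 lower. Of all 11196 genes measured there, 8.2% were higher and 1.68% lower. The median log2 ratio of the list was 0.14 beside 0.11 over all genes. In astrocyte-like cells 14 were measured, and 1 was higher and 0 lower, against 5.91% and 1.29% of all 10758 genes. The median was 0.07 beside 0.11. As for the members, a sparse gene reaches 50 UMIs more easily in the library where it is high. These counts describe the lists and carry no test.

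By role, the C1 enzymes that C1q activates were nearly absent, and C1ra, the most abundant, had 70 UMIs in all kept cells. Colec12, a scavenger collectin with 2347 UMIs, was highest in fibroblast-like cells (683 CPM) and differed in myeloid cells, from 17.7 CPM in control to 171 CPM in WMI (log2 3.27, 2.72 to 3.88). Cfp, properdin, which stabilises the alternative convertase, was level in myeloid cells (9.16 and 10.1 CPM). Clu, a soluble inhibitor of the terminal complex, was at 118 CPM in control and 213 CPM in WMI astrocyte-like cells (log2 0.85, 0.65 to 1.04). C7, a terminal pathway protein, had 563 UMIs and was highest in neurons (5.58 CPM). Csmd1, a membrane inhibitor of C3 and C4 fragments that neurons carry, had 794090 UMIs and was found in every class. It was at 7407 CPM in neurons, 6018 CPM in OL lineage, 4515 CPM in astrocyte-like and 3245 CPM in myeloid cells. Its lowest level was in mural cell-like cells (2748 CPM). Sez6l, a sushi-domain protein, had 29401 UMIs and was highest in OL lineage cells (343 CPM). Itgam, a chain of the receptor that binds C3 fragments on microglia, was at 41.4 CPM in control and 102 CPM in WMI microglia-like cells (log2 1.30, 0.88 to 1.74), which places it near the C1q sum.

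Over 57 sums of UMIs by cluster and library, the genes most like each member were ranked among 15598 genes by the correlation of log2(CPM + 1). For the C1q sum they were Grn (r = 0.98), Ctss (0.98) and Ctsd (0.97), lysosomal and secreted proteins of macrophages. For C3ar1 they were Grn, Ctsd (0.93 each) and Ctsb (0.92), and for C5ar1 Cd48 (0.88), Msr1 and Gpr160 (0.83 each). For C4b they were Anxa2 (0.83), A2m and Gfap (0.82 each), for C3 Cxcl10 (0.76), Serpina3n (0.72) and Lgals3 (0.70), and for Serping1 Cp, Il1r1 (0.80 each) and Col4a6 (0.78). The sums share libraries and depth, and most of them were of classes that are not myeloid. C3 and C5ar1 had only 88 and 149 UMIs in all kept cells, below the 200 asked of the genes compared. The ranking is a description.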

How the data were processed

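The authors deposited raw UMI counts, without normalization, of every gene in every barcode of 1 control and 1 WMI library. The file headers name Cell Ranger 6.1.1, and the submitters' processing notes list Seurat and the build mm9. The aligner settings and strand counting are not given in the sources used here. The study's methods give 4 replicates in each group, whereas these values rest on a single library of each. The study describes fewer cells than the barcodes in the files, and its shares were not compared. The libraries held 66470806 UMIs in 10288 barcodes (control) and 60568639 UMIs in 8354 barcodes (WMI).

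Barcodes were kept at 1000 or more UMIs, 500 or more genes and at most 10% of UMIs from mitochondria. This took out 748 control and 241 WMI barcodes, and a nearest-neighbour search against simulated doublets took out 728 and 527 more (0.8% per 1000 barcodes). Cells were integrated with Seurat 5.3.0 in R 4.3.3 (2000 features without the complement genes, 30 dimensions, resolution 0.8). A marker counted at 25% of the level in the highest cluster, in 10% of cells and, outside neuronal lists, 3-fold above the lower quartile. A name needed 4 markers and 50% of a list. These thresholds followed a look at the clusters, and the class names are rebuilt rather than the study's.

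Levels are UMIs of a gene over all UMIs of a class. Levels have exact Poisson, ratios conditional binomial and shares Clopper-Pearson 95% intervals, from scipy 1.17.1 in Python 3.11.15. PCR copies are removed by UMIs, but the intervals leave out variation between mice. In ratios and shares, a count of 0 was set beside a floor of 3 UMIs or 3 cells over the group. Values at this floor and ratios to it leave out counting error. Genes were measured at 50 UMIs over both libraries. The ratio intervals were tried on simulated Poisson counts of 9031 genes in microglia-like cells, 200 of them changed. They held the true value in 96% of changed genes and in 95.7% of unchanged ones. Such intervals cover Poisson counts by construction, and no variation between cells or mice was simulated. The simulation therefore checks the calculation only. No test was run, since each condition had 1 library. The rule named the members in every class, the most abundant further gene of each role and the 3 most similar genes per member. Other marker genes were named after their values were seen. The members and lists were chosen with earlier results of these data known.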

Additional observations from a re-analysis of the deposited data

How the results depend on the processing

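Of 106 alternative values for 10 results, 93 stayed within the interval of the value reported, 13 moved outside it and 0 changed direction with an interval that left out 0. Some alternatives changed no cells of a result, so the tally overstates the separate checks. Without clusters of 1 library, for example, the counts of C4b in astrocyte-like and OL lineage cells stayed the same. For C1q in myeloid cells that setting kept the same cells as microglia-like cells alone. For C1q in myeloid cells (log2 1.09) the value was 1.26 with doublets kept, 1.43 without clusters that had at least 90% of their cells from 1 library, 1.43 in microglia-like cells alone and 0.70 after the UMIs per cell of excitatory neuron-like cells were subtracted. The last 2 were chosen after seeing the data, as were the UMIs per cell in neurons and leaving out the cell with most UMIs. For C1q in neurons (2.11) it was 2.42 without clusters of 1 library, 1.97 as a mean over cells and 2.55 as UMIs per cell. For Serping1 in fibroblast-like cells (0.12) it was -1.30 in cells with no Xist UMI, where 3 WMI UMIs remained, a change of sign within an interval of -3.68 to 0.42. The difference in the share of myeloid cells with C3 (0.29 points) was 0.756 in cells with no Xist UMI and 1.01 without thinning. For all 3 C1q genes (4.83 points) it was 7.62 without clusters of 1 library, 16.7 without thinning and 10.2 at 2000 UMIs. Leaving out clusters, thinning and the choice of cells act by their own construction, and for the others the cause was not tested. Within its interval, but with the sign changed, Serping1 in fibroblast-like cells was -0.29 as a mean over cells and -0.03 without the top cell. The log2 ratio of C3 in myeloid cells to the control floor (1.13) was 0.80 without the top cell. C3 in myeloid cells had no value without the activated myeloid cluster, where 3 WMI UMIs met 0. Fibroblast-like cells found no cluster of their own with doublets kept, and C4b in the OL lineage had no value once the count of neurons was subtracted. Leaving out the control cell with the C4b UMI of that lineage left only a log2 ratio to the control floor, of 2.56. No paired analysis was possible because each group had 1 library, and no library could be left out. Depth limits C3 and C5ar1 most, with 2 and 14 UMIs in all kept control cells.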
